A study of Mus musculus with 19 samples.

Results

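The genes described here encode the sterol-regulated machinery that makes and processes the SREBP transcription factors. They were 9 of the 49315 genes in the deposited tables, taken by symbol from a fixed list: the precursors Srebf1 and Srebf2, the escort Scap, the anchors Insig1 and Insig2, the proteases Mbtps1 and Mbtps2, and the ubiquitin ligases Rnf145 and Rnf139. No measured value entered this rule, but earlier results of these data were known when the list was chosen. All 9 passed the filter on low counts. Liver RNA of 19 female mice was sequenced, with 1 library per mouse, in 4 groups. On the high cholesterol diet (0.2% wt/wt) there were 5 Gramd1c-/- and 5 Gramd1c+/+ mice, and on the low cholesterol diet (0.02% wt/wt) 4 Gramd1c-/- and 5 Gramd1c+/+ mice. All mice were moved from chow to these diets at 8 weeks of age and fed for 4 weeks.

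Gramd1c encodes Aster-C, a protein of the endoplasmic reticulum that carries cholesterol away from the plasma membrane. The Gramd1c-/- mice carried the tm1a knockout-first allele in all tissues, in which an inserted cassette interrupts the gene. The line is on a C57BL/6N background, its strain name also lists the allele Atm1Brd, and wild type littermates came from crosses of heterozygotes. SREBPs are made as membrane proteins of the endoplasmic reticulum. When sterols are scarce, SCAP escorts them to the Golgi, where the site-1 and site-2 proteases release the part that enters the nucleus and turns on genes of cholesterol and fatty acid synthesis. When sterols are plentiful, the INSIG proteins hold SCAP back. Several of these proteins are themselves encoded by SREBP target genes, which closes a feedback loop, and the comparison of diets asked which parts of that loop responded at the level of RNA.

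Total counts were 27149972 to 34669648 per library. The tissue field of the labels names gonadal adipose tissue, whereas the cell type field names liver. Albumin alone took 5.25% to 9.17% of the counts of every library, and the summed level of 6 adipocyte markers was at most 8.54 TPM (counts scaled by gene length and library size) in all but 1 library. That library, Gramd1c+/+ low cholesterol replicate 2, held 137 TPM of adipocyte and 574 TPM of adrenal cortex markers, against at most 3.71 TPM of adrenal markers in the other libraries. Gramd1c-/- high cholesterol replicate 5 lay apart on the first principal component. Within the same group, summed Kupffer cell markers were 755 TPM in replicate 4 (group median 263 TPM, at most 388 TPM in the other groups) and summed cholangiocyte markers were 216 TPM in replicate 3 (group median 79.5 TPM, at most 81.3 TPM in the other groups), and their part in the results was not tested. Gramd1c itself was 1.07 to 3.61 TPM in Gramd1c-/- and 9.56 to 11.7 TPM in Gramd1c+/+ mice on high cholesterol, and 1.25 to 2.04 TPM in Gramd1c-/- and 10.4 to 16.0 TPM in Gramd1c+/+ mice on low cholesterol, as labelled. The summed level of 6 hepatocyte markers was 76275 to 101306 TPM on high and 108017 to 125148 TPM on low cholesterol in Gramd1c-/- mice, with no overlap, and 82016 to 108510 TPM on high and 91959 to 126577 TPM on low cholesterol in Gramd1c+/+ mice, where the diets overlapped. Its part in the diet results was not tested. In whole liver, fewer cells of a type and less RNA per cell cannot be told apart.

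Per transcript length, the 9 genes spanned a wide range of levels. Insig2 (mean 157 TPM over the 19 libraries, range 76.7 to 259), Insig1 (148, range 61.1 to 269.7) and Srebf1 (113, range 68.2 to 229.9) were the most abundant, with ranges that overlapped. Scap followed with 47.1 TPM (27.8 to 75.8), Srebf2 with 25.8 TPM (8.04 to 51.7), Rnf139 with 21.1 TPM (13.1 to 26.1), Mbtps1 with 13.2 TPM (7.15 to 18.3) and Rnf145 with 7.49 TPM (5.28 to 11.8), each range overlapping the next. Mbtps2 was the lowest, at 2.16 TPM (1.35 to 2.74), and its range did not reach that of any other member. Even so, no library held fewer than 205 counts of it, so all members were measured well above the limit set by counting. The plot of levels shows every library. This order is over both diets and differed between them. On high cholesterol Srebf1 averaged 128 TPM and Insig1 87.4 TPM, and Rnf139 averaged 20.3 TPM and Srebf2 15.5 TPM. On low cholesterol Insig1 averaged 215 TPM and Insig2 170.0 TPM, with ranges that overlapped.

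**Figure D1:**
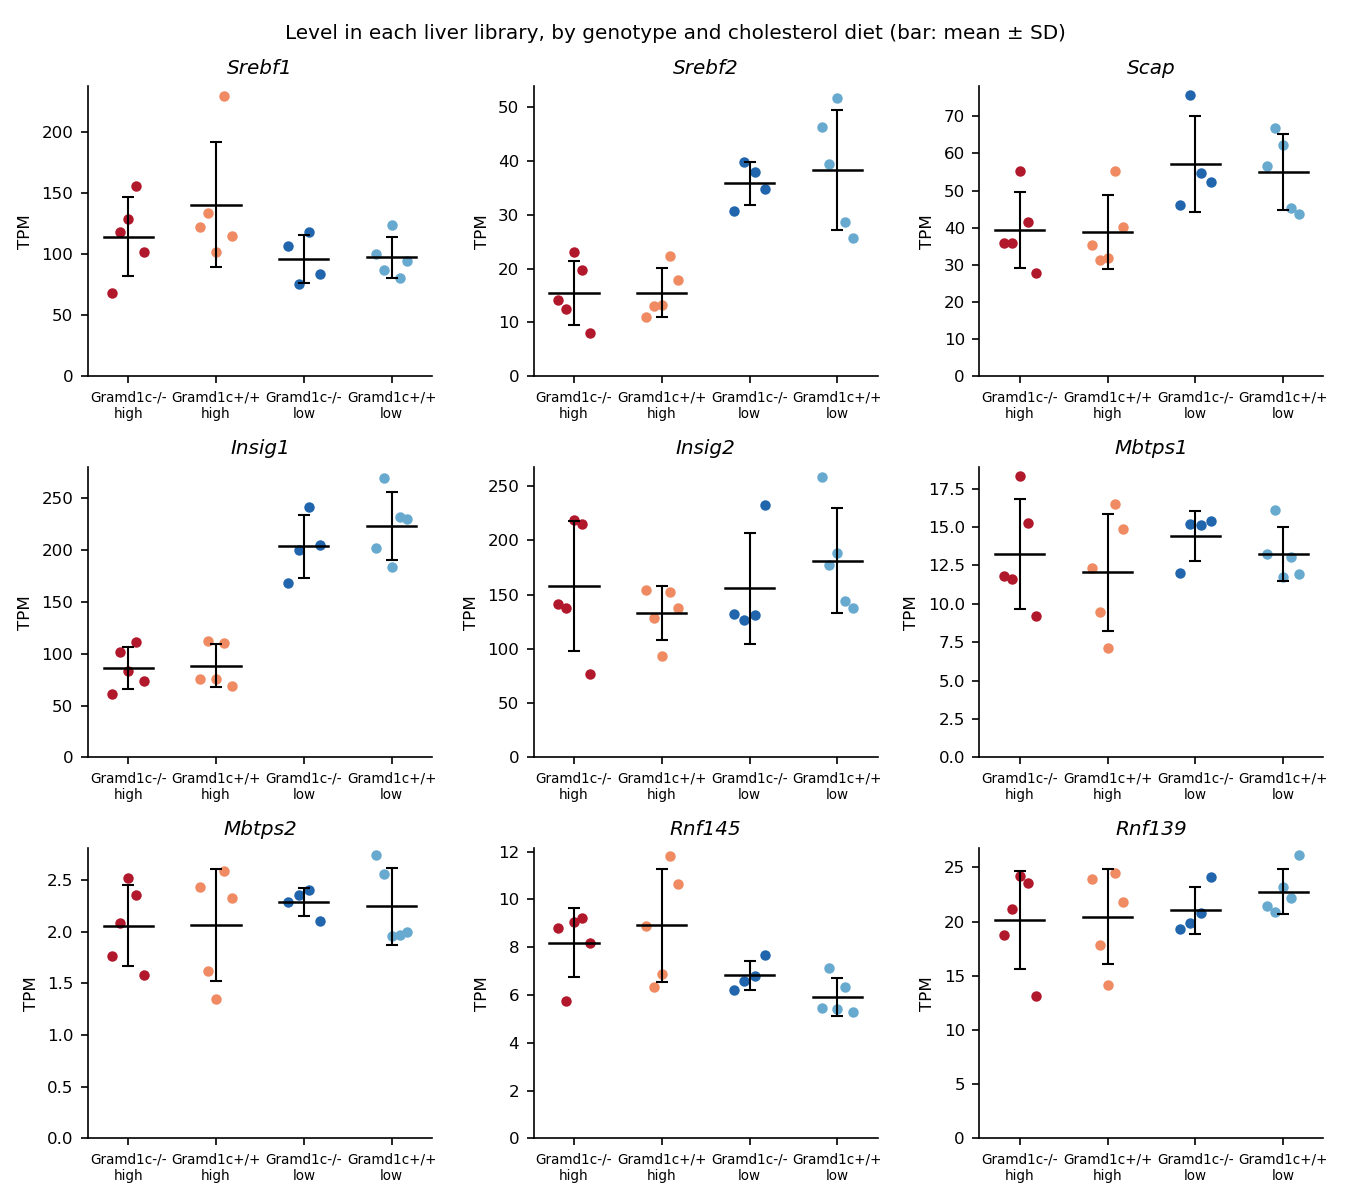
Level in TPM of the 9 genes in each of the 19 liver libraries (points), with the mean and SD of each group (bars), for Gramd1c-/- and Gramd1c+/+ mice on the high and low cholesterol diets. Insig1 and Srebf2 separate the diets without overlap in both genotypes, while the 2 genotypes overlap for all 9 genes on both diets. The share of all genes without overlap was not computed, so these counts are descriptions.

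Diet changed the RNA of some parts of the loop. In Gramd1c-/- mice, 2 of the 9 members were lower and 0 higher on high cholesterol at an adjusted p below 0.05 (edgeR quasi-likelihood test, adjusted over 15016 genes), where 0.293% of all genes tested were called lower and 0.0333% higher. In Gramd1c+/+ mice, 2 were lower and 1 higher, where 0.34% of genes were called lower and 0.0999% higher. Averaged over both genotypes, 3 members were lower (Srebf2, Insig1 and Scap) and 1 higher (Rnf145), against 0.852% and 0.446% of all genes. The other 5 members did not pass the test in any diet comparison, and the median log2 fold change over the 9 members was -0.15, against 0.02 over all genes. Without the 2 libraries that stood apart, the averaged values were -1.22 for Srebf2, -1.25 for Insig1, -0.48 for Scap (adjusted p = 0.0396) and 0.42 for Rnf145 (adjusted p = 0.0324), and the same 4 members passed. The plot of diet effects gives all values.

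**Figure D2:**
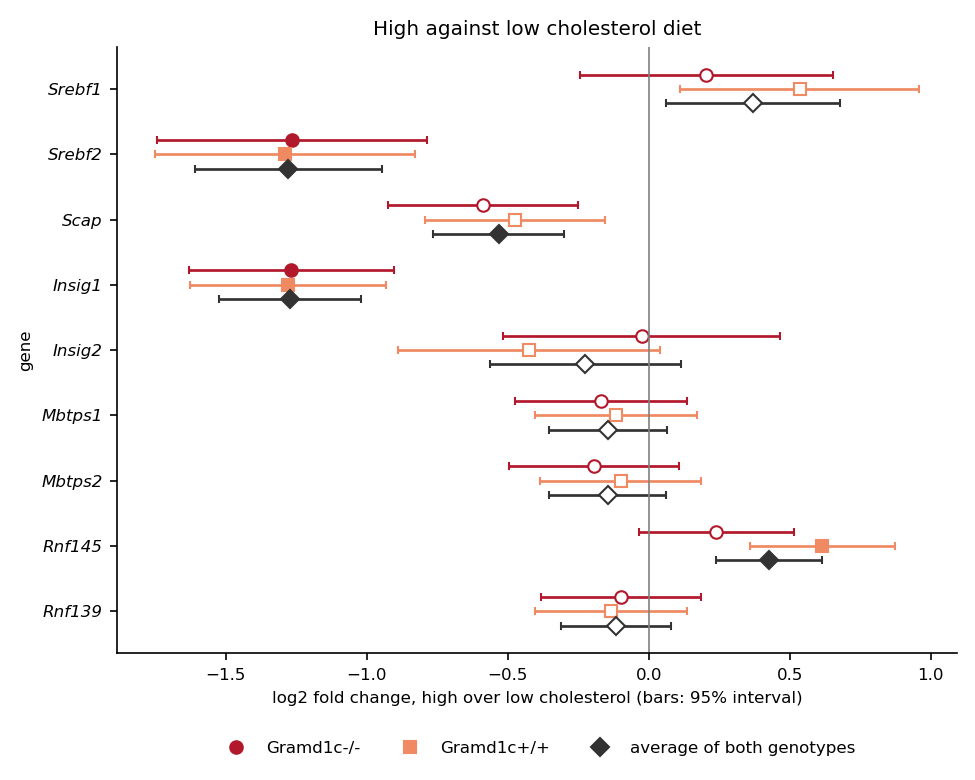
Log2 fold change of high over low cholesterol (x axis) for each member (y axis) in Gramd1c-/- mice, in Gramd1c+/+ mice and averaged over both, with 95% intervals (bars). Filled symbols passed an adjusted p below 0.05. Insig1 and Srebf2 lie near -1.27 in each comparison, and Rnf145 lies on the opposite side of 0.

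Srebf2 encodes SREBP-2, the factor that chiefly drives genes of cholesterol synthesis. Its gene lies on chromosome 15 (82147266 to 82205376, plus strand, GRCm38). Its levels on high cholesterol were 14.2, 12.5, 23.1, 19.8 and 8.04 TPM in Gramd1c-/- mice and 11.01, 13.1, 13.3, 22.3 and 17.9 TPM in Gramd1c+/+ mice. On low cholesterol they were 30.7, 39.7, 38.0 and 34.8 TPM in Gramd1c-/- mice and 46.2, 39.5, 51.7, 28.6 and 25.6 TPM in Gramd1c+/+ mice. Every liver on high cholesterol lay below every liver on low cholesterol, in either genotype. How many of all genes separate the diets in this way was not computed. The fitted level was 2.41-fold lower on high cholesterol in Gramd1c-/- mice (log2 fold change -1.27 ± 0.23 SE, adjusted p = 0.00957) and 2.45-fold lower in Gramd1c+/+ mice (-1.29 ± 0.22, adjusted p = 0.00450). Without Gramd1c-/- low cholesterol replicate 2 the first call was lost (-1.21, adjusted p = 0.0516), and over all alternatives its adjusted p was 4.99e-05 to 0.0516.

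The libraries were deposited under numbers, which were divided here into 2 runs at the widest gap between consecutive numbers, a gap of 4. Each run held mice of all 4 groups, and the wild type values of Srebf2 split along these runs. On high cholesterol the Gramd1c+/+ mice averaged 20.1 TPM in the first run (n = 2) and 12.5 TPM in the second (n = 3), and on low cholesterol 45.8 TPM (n = 3) and 27.1 TPM (n = 2). The diet difference was of like size within each run: the log2 ratio of mean TPM, high over low, was -1.18 and -1.12 in Gramd1c+/+ mice and -1.12 and -1.32 in Gramd1c-/- mice, where the second run held 1 mouse on low cholesterol. With a term for the run, the diet effect averaged over genotypes was -1.20 (adjusted p = 2.47e-05), against -1.28 ± 0.16 (adjusted p = 5.29e-05) without it. No source used here says what the runs stand for.

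The sequence before the Srebf2 start site is shown because Srebf2 was, with Insig1, the member that moved most with diet. It is the 250 bases before the RefSeq start site (GRCm38.p6, chr15:82147019-82147268, plus strand), 5′ to 3′, and capitals mark the motifs searched on both strands.
Srebf2: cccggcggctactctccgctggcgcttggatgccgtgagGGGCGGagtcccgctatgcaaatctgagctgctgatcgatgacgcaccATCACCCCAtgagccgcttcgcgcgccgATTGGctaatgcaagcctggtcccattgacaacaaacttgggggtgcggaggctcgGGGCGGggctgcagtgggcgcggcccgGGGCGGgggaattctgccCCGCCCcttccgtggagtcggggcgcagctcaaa
The capitals hold ATCACNCCA, the core of a sterol regulatory element, 163 to 155 bases before the start site, followed 131 to 135 bases before it by an NF-Y box (CCAAT, here on the minus strand). They also hold 4 Sp1 boxes (GGGCGG). The core was present in 0.712% of 32851 RefSeq windows of the same length, the NF-Y box in 33.8% and the Sp1 box in 32.7%. Among the 8 members with a window in the table, Srebf2 was the 1 with a match to the core. The motifs were picked after the windows had been read, a match is not a site, and the counts do not bear on whether SREBP bound here. Rnf139 had no window.

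Insig1 encodes the anchor that holds SCAP in the endoplasmic reticulum, and is a known SREBP target. It lies on chromosome 5 (28071363 to 28078662, plus strand). On high cholesterol its levels were 61.1, 101, 83.1, 112 and 74.0 TPM in Gramd1c-/- mice and 75.3, 112, 76.1, 110.1 and 69.2 TPM in Gramd1c+/+ mice. On low cholesterol they were 168, 199.7, 242 and 204 TPM in Gramd1c-/- mice and 202, 269.7, 184, 232 and 229.9 TPM in Gramd1c+/+ mice. The diets did not overlap: the highest liver on high cholesterol (112 TPM) lay below the lowest on low cholesterol (168 TPM). As for Srebf2, the share of all genes without overlap was not computed. Insig1 was 2.41-fold lower on high cholesterol in Gramd1c-/- mice (log2 fold change -1.27 ± 0.17 SE, adjusted p = 3.01e-04) and 2.43-fold lower in Gramd1c+/+ mice (-1.28 ± 0.17, adjusted p = 1.57e-04). The average over genotypes was -1.27 ± 0.12 (adjusted p = 7.81e-07), placing Insig1 at rank 27 of 15016 genes by p. Neither the run of library numbers nor any library left out ended this call, and the value lay between -1.34 and -1.22 over the alternatives.

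The window before the Insig1 start site is given for comparison with that of Srebf2 (GRCm38.p6, chr5:28071162-28071411, plus strand, with the same motifs in capitals).
Insig1: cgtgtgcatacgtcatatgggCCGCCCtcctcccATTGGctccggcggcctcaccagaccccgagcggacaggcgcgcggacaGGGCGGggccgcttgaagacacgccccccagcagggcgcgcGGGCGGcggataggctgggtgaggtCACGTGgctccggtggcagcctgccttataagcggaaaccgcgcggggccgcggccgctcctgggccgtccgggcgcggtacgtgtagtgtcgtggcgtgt
It held 1 NF-Y box, 3 Sp1 boxes and 1 E-box (CACGTG, 101 to 96 bases before the start site, present in 6.02% of windows), and no match to the core that Srebf2 carried. The absence of these letters covers this window only.

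Insig2 encodes the second anchor, which in mouse liver is known for an isoform that responds to fasting and insulin. The counts are per gene and cannot separate its isoforms. On high cholesterol the levels were 142, 138, 219, 215 and 76.7 TPM in Gramd1c-/- mice and 154, 128, 93.5, 152 and 137 TPM in Gramd1c+/+ mice. On low cholesterol they were 132, 127, 131 and 233 TPM in Gramd1c-/- mice and 259, 177, 189, 144 and 138 TPM in Gramd1c+/+ mice. The diets overlapped in both genotypes. The log2 fold change was -0.03 (95% interval -0.52 to 0.47) in Gramd1c-/- mice and -0.42 (-0.89 to 0.04) in Gramd1c+/+ mice, with adjusted p = 0.967 and 0.663. In Gramd1c-/- mice it was 0.20 without low cholesterol replicate 4, the mouse at 233 TPM.

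The plot of ratios shows the balance of the anchors per library. The ratio of Insig1 to Insig2 (TPM over TPM) was 0.431, 0.734, 0.380, 0.519 and 0.965 on high and 1.27, 1.57, 1.85 and 0.878 on low cholesterol in Gramd1c-/- mice. In Gramd1c+/+ mice it was 0.489, 0.875, 0.813, 0.724 and 0.503 on high and 0.782, 1.52, 0.973, 1.61 and 1.67 on low cholesterol. Insig2 was the more abundant anchor in all 10 livers on high cholesterol, and Insig1 in 6 of the 9 on low cholesterol. These ratios are descriptions and were not tested.

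**Figure D3:**
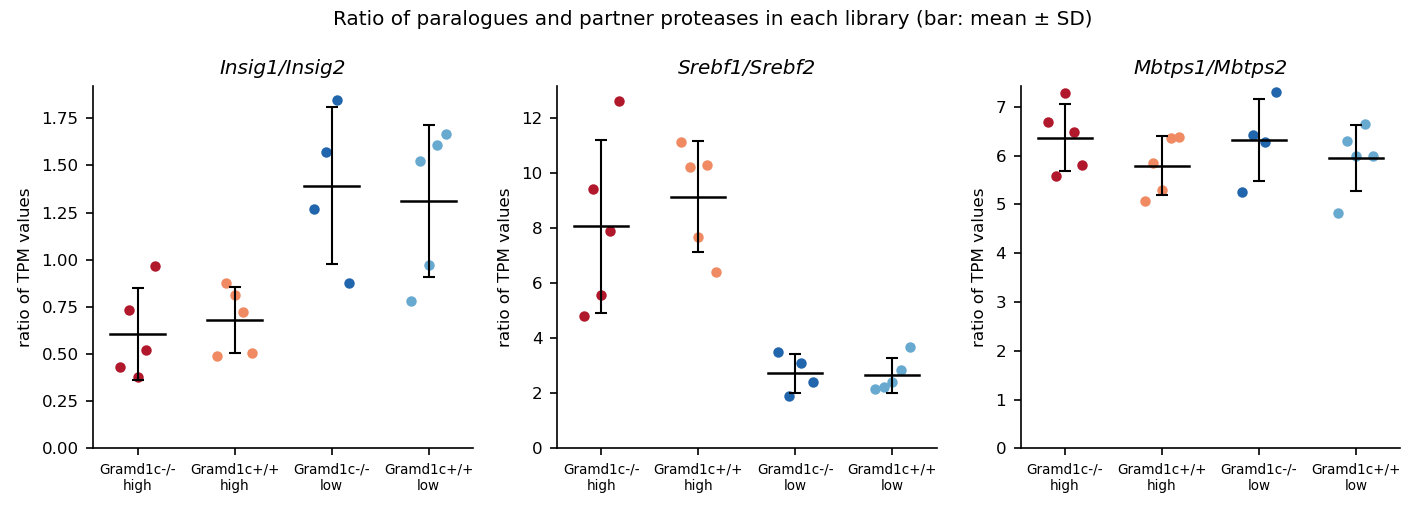
Ratio of the TPM values of Insig1 to Insig2, Srebf1 to Srebf2 and Mbtps1 to Mbtps2 in each library (points), with the mean and SD of each group (bars). The Srebf1 to Srebf2 ratio separates the diets (4.81 to 12.6 on high, 1.91 to 3.70 on low cholesterol), whereas the protease ratio spans 4.83 to 7.30 with all groups overlapping. Srebf2 alone also separates the diets, and the share of all gene pairs that do so was not computed.

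Scap encodes the escort that binds sterols and carries SREBPs to the Golgi. It lies on chromosome 9 (110333288 to 110384950, plus strand). On high cholesterol its levels were 36.0, 35.8, 55.3, 41.6 and 27.8 TPM in Gramd1c-/- mice and 35.3, 31.4, 31.9, 55.4 and 40.2 TPM in Gramd1c+/+ mice. On low cholesterol they were 46.1, 75.8, 54.7 and 52.4 TPM in Gramd1c-/- mice and 56.6, 66.8, 62.3, 45.4 and 43.6 TPM in Gramd1c+/+ mice. The diets overlapped in both genotypes because of 1 high value in each high cholesterol group. Averaged over genotypes, Scap was 1.45-fold lower on high cholesterol (log2 fold change -0.53 ± 0.11 SE, adjusted p = 0.0164), and within a genotype it did not pass the test (-0.59, adjusted p = 0.233 in Gramd1c-/- and -0.48, adjusted p = 0.358 in Gramd1c+/+ mice). The averaged call was lost without Gramd1c-/- low cholesterol replicate 2, the library at 75.8 TPM (-0.45, adjusted p = 0.0535), and in limma on log2(TPM + 1) (-0.52, adjusted p = 0.0901), with a range of 6.19e-04 to 0.0901 over all alternatives. With a term for the run of library numbers it was -0.47 (adjusted p = 0.0114).

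Scap and Srebf2 varied together. Across the 19 livers, Srebf2 was the gene whose log2 level was most like that of Scap of all genes tested, with Pearson r = 0.920 and Spearman rho = 0.954. With the group means removed, r was 0.813. Scap also split along the runs of library numbers in wild type mice, with means of 47.8 TPM in the first and 32.9 TPM in the second run on high cholesterol, and 61.9 and 44.5 TPM on low cholesterol. These correlations describe libraries that share diet, depth and run, and are given without a test.

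**Figure D4:**
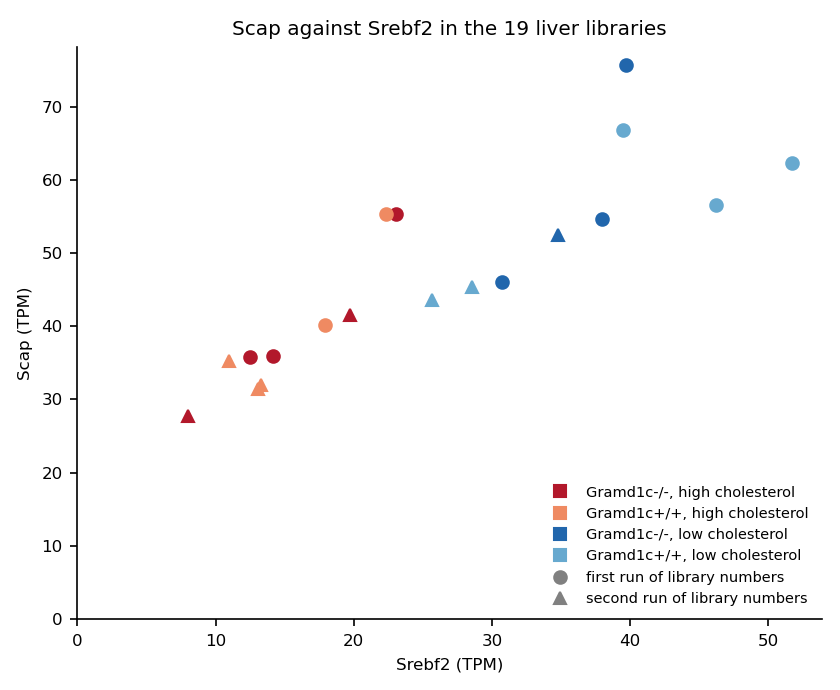
Scap (y axis, TPM) against Srebf2 (x axis, TPM) in the 19 liver libraries, coloured by group, with circles and triangles for the 2 runs of library numbers. Livers on high cholesterol sit at 8.04 to 23.1 TPM of Srebf2 and those on low cholesterol at 25.6 to 51.7 TPM, and Scap is higher where Srebf2 is higher within each diet.

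Srebf1 encodes SREBP-1, whose form 1c is an LXR and insulin target in liver and chiefly drives fatty acid synthesis. The counts do not separate the forms 1a and 1c, and the gene's end overlaps that of Rai1 on the opposite strand (224 to 431 counts, against 5054 to 18912 for Srebf1). On high cholesterol Srebf1 was at 68.2, 118, 129, 156 and 102 TPM in Gramd1c-/- mice and at 123, 134, 102, 229.9 and 115 TPM in Gramd1c+/+ mice. On low cholesterol it was at 107, 75.8, 118 and 84.3 TPM in Gramd1c-/- mice and at 99.9, 87.5, 124, 80.9 and 94.8 TPM in Gramd1c+/+ mice. The diets overlapped in both genotypes. The log2 fold change was 0.20 (95% interval -0.25 to 0.65) in Gramd1c-/- mice and 0.53 (0.11 to 0.96) in Gramd1c+/+ mice, and neither passed the test (adjusted p = 0.692 and 0.499). Averaged over genotypes it was 0.37 (0.06 to 0.68), which did not pass either (edgeR, adjusted p = 0.202). The wild type value was 0.37 without the mouse at 229.9 TPM.

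The SREBP genes had diet values of opposite sign, though those of Srebf1 did not pass the test. The ratio of Srebf1 to Srebf2 was 4.81, 9.43, 5.58, 7.90 and 12.6 on high and 3.48, 1.91, 3.11 and 2.42 on low cholesterol in Gramd1c-/- mice. In Gramd1c+/+ mice it was 11.1, 10.2, 7.68, 10.3 and 6.41 on high and 2.16, 2.22, 2.40, 2.83 and 3.70 on low cholesterol. Every liver on high cholesterol had a higher ratio than every liver on low cholesterol. Srebf2 alone separated the diets in this way, whereas Srebf1 overlapped. How many of all gene pairs have ratios that separate the diets was not computed. The Srebf1 to Srebf2 ratio is a description and was not tested.

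The proteases cleave SREBPs in sequence, site-1 protease (Mbtps1) first and site-2 protease (Mbtps2) second. Mbtps1 averaged 13.2 ± 3.6 TPM on high and 14.4 ± 1.6 TPM on low cholesterol in Gramd1c-/- mice (SD, n = 5 and 4), and 12.1 ± 3.8 TPM on high and 13.2 ± 1.7 TPM on low cholesterol in Gramd1c+/+ mice (n = 5 each). Mbtps2 averaged 2.06 ± 0.39 TPM on high and 2.29 ± 0.13 TPM on low cholesterol in Gramd1c-/- mice, and 2.06 ± 0.55 TPM and 2.24 ± 0.37 TPM in Gramd1c+/+ mice. Neither protease passed the test for diet. Averaged over genotypes, the log2 fold change was -0.14 (95% interval -0.35 to 0.07) for Mbtps1 and -0.15 (-0.35 to 0.06) for Mbtps2, intervals whose lower ends correspond to 1.28-fold lower on high cholesterol. The protease ratio was 4.83 to 7.30 over all libraries.

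Rnf145 encodes an ubiquitin ligase of the endoplasmic reticulum that is known in mouse liver as an LXR target and as a ligase for SCAP. It was the 1 member called higher on high cholesterol. Its levels on high cholesterol were 8.79, 5.73, 9.03, 9.21 and 8.18 TPM in Gramd1c-/- mice and 8.87, 6.34, 6.88, 11.8 and 10.7 TPM in Gramd1c+/+ mice. On low cholesterol they were 6.22, 6.57, 6.81 and 7.67 TPM in Gramd1c-/- mice and 5.46, 7.12, 5.39, 6.35 and 5.28 TPM in Gramd1c+/+ mice. In Gramd1c-/- mice 4 of the 5 livers on high cholesterol lay above all livers on low cholesterol, and in Gramd1c+/+ mice 3 of 5 did. The log2 fold change was 0.24 ± 0.13 SE in Gramd1c-/- mice (adjusted p = 0.478), 0.61 ± 0.12 in Gramd1c+/+ mice (1.53-fold, adjusted p = 0.0250) and 0.43 ± 0.09 averaged over both (1.34-fold, adjusted p = 0.0174).

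The Rnf145 calls were close to the threshold. The wild type call was lost in 7 of the 19 fits that each left out 1 mouse (high cholesterol replicates 1, 4 and 5 and low cholesterol replicates 1, 2, 3 and 5 of the Gramd1c+/+ mice), with log2 values of 0.56 to 0.64. It was also lost without the filter on low counts (adjusted p = 0.0626), with only the compared groups in the fit (0.0644) and in limma (0.409), over a range of 0.00124 to 0.409. The averaged call was lost without Gramd1c-/- low cholesterol replicate 2 (adjusted p = 0.0536) and in limma (0.177), over a range of 0.00105 to 0.177. Within runs of library numbers, the log2 ratio of means was 0.27 and 0.18 in Gramd1c-/- mice and 0.91 and 0.34 in Gramd1c+/+ mice.

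Rnf139 encodes TRC8, a second ubiquitin ligase with a sterol-sensing domain. Its gene overlaps Tatdn1 on the opposite strand, which had 150 to 258 counts against 790 to 1662 for Rnf139. It averaged 20.2 ± 4.5 TPM on high and 21.1 ± 2.1 TPM on low cholesterol in Gramd1c-/- mice, and 20.5 ± 4.4 TPM on high and 22.8 ± 2.1 TPM on low cholesterol in Gramd1c+/+ mice. The averaged log2 fold change was -0.12 (95% interval -0.31 to 0.08), and it passed no test. The ratio of Rnf145 to Rnf139 was 0.271 to 0.623 on high and 0.318 to 0.330 on low cholesterol in Gramd1c-/- mice, and 0.356 to 0.488 on high and 0.202 to 0.340 on low cholesterol in Gramd1c+/+ mice, where the diets did not overlap. The share of all gene pairs without overlap was not computed, and this ratio was not tested.

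No member passed the test for genotype on either diet. On high cholesterol the log2 fold changes of Gramd1c-/- over Gramd1c+/+ mice ran from -0.36 for Srebf1 (95% interval -0.78 to 0.07) to 0.16 for Insig2 (-0.31 to 0.62), and 0 of 9 passed the test (edgeR, all adjusted p = 0.99996). On low cholesterol they ran from -0.24 for Insig2 (-0.74 to 0.25) to 0.21 for Rnf145 (-0.07 to 0.48), and 0 of 9 passed (all adjusted p = 0.999). Over all genes 0.00666% were called on each diet, which was Gramd1c itself. No member had an unadjusted p below 0.05 on either diet, and none passed in any alternative, DESeq2 included. Of the 95% intervals, the one that reached farthest from 0 ended at 0.78 in size on the log2 scale, for Srebf1 on high cholesterol.

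**Figure D5:**
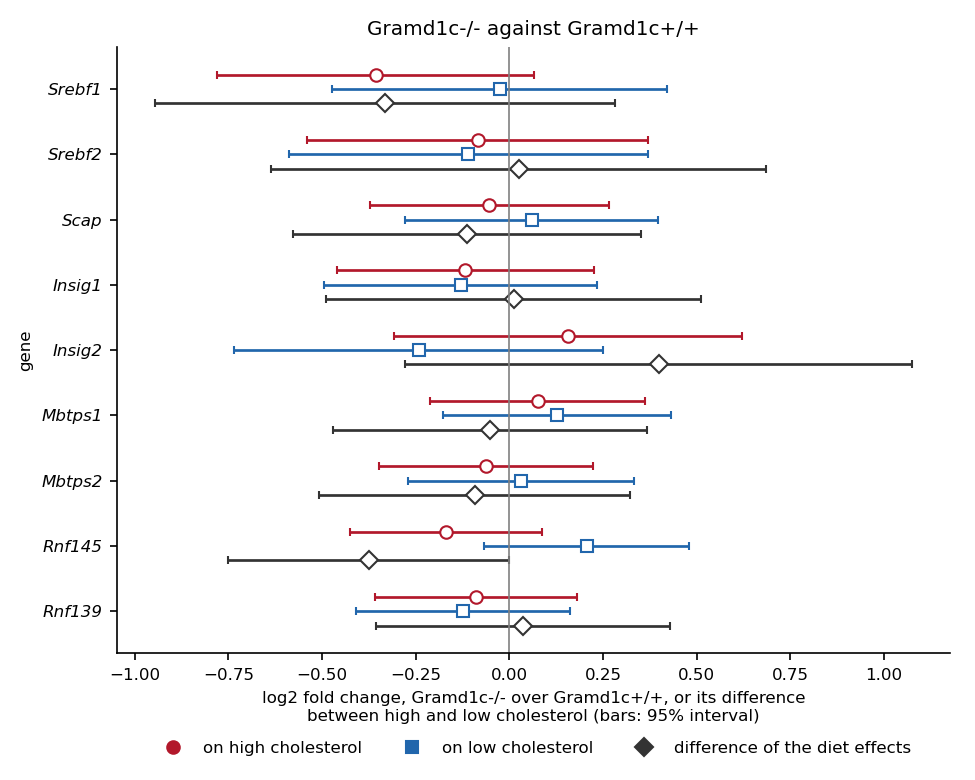
Log2 fold change of Gramd1c-/- over Gramd1c+/+ mice on high and on low cholesterol, and the difference between the diet effects of the genotypes (x axis), for each member (y axis) with 95% intervals (bars). No symbol is filled, since no value passed an adjusted p below 0.05, and the interval of Rnf145's difference ends just below 0.

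The diet effects themselves were compared between genotypes with an interaction term. None of the 9 members passed (edgeR, all adjusted p = 0.99993), as did 0% of all genes, of which 250 had an unadjusted p below 0.05, and DESeq2 called 0 genes as well. For the pair that moved most with diet the difference was small: 0.02 (95% interval -0.64 to 0.68) for Srebf2 and 0.01 (-0.49 to 0.51) for Insig1. Rnf145 alone among the members had an unadjusted p below 0.05 for this difference (-0.38, 95% interval -0.75 to -0.00099), which did not hold after adjustment, so its call in wild type mice and not in Gramd1c-/- mice is not a shown difference between the genotypes.

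The genes around the loop were described by lists. Of 20 genes of cholesterol synthesis, which SREBP-2 drives, 18 were lower on high cholesterol in Gramd1c-/- mice and 18 in Gramd1c+/+ mice, and 19 on average, with a median log2 fold change of -2.06 against 0.02 over all genes. Sqle, squalene epoxidase, averaged 1.86 ± 0.46 TPM on high and 43.8 ± 9.98 TPM on low cholesterol in Gramd1c-/- mice, and 1.94 ± 0.22 TPM and 44.4 ± 12.1 TPM in Gramd1c+/+ mice. Its averaged log2 fold change was -4.53 ± 0.16 (adjusted p = 9.37e-14). Cyp51 (-3.35), Msmo1 (-3.19) and Nsdhl (-2.91) are enzymes of the later steps. The averaged values of Srebf2 and Insig1, -1.28 and -1.27, were smaller in size than the median of this list.

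Of 13 fatty acid synthesis genes attributed to SREBP-1, 8 were lower on high cholesterol on average, 4 in Gramd1c-/- and 2 in Gramd1c+/+ mice, with a median of -0.90. Srebf1 RNA itself had a positive value that did not pass the test. Acss2, acetyl-CoA synthetase, had an averaged log2 fold change of -1.61 ± 0.18 (adjusted p = 1.12e-05), Acly -1.25 (adjusted p = 0.00179), Fasn, fatty acid synthase, -1.20 (adjusted p = 0.00388) and Fads1 -0.90 (adjusted p = 6.51e-04). Of 10 LXR targets, averaged over genotypes, 1 was higher, Abcg5, which encodes a subunit of the canalicular sterol exporter (0.67 ± 0.13, adjusted p = 0.00634). The 1 called lower was the phospholipid transfer protein gene Pltp (-1.31 ± 0.22, adjusted p = 0.00194). Both were also called in Gramd1c+/+ mice. In Gramd1c-/- mice 0 of the 10 were called (edgeR, Abcg5 0.53, adjusted p = 0.337, and Pltp -1.23, adjusted p = 0.162). Averaged over genotypes, Abcg8 (0.31) and Abcg1 (0.30) did not pass the test, and the median of the list was -0.01.

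Genes closer to the machinery were described in the same way. Of the genes of sterol-dependent ubiquitylation and degradation, March6 (-0.39, adjusted p = 0.166) and Faf2 (-0.25, adjusted p = 0.139) did not pass the test for averaged diet. Of 12 genes of the COPII coat and of Golgi retention of SCAP, 0 were called (edgeR), with a median of -0.22. The 4 with the smallest p were 2410131K14Rik (Spring1, a cofactor of SREBP processing, 0.45), Sec31a (-0.34), Sec23a (-0.32) and Sar1a (-0.16), with adjusted p of 0.149 to 0.221.

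Among 7 tested genes of other site-1 and site-2 protease substrates, 0 were called, and the stress sensor Atf6 had -0.33 (adjusted p = 0.242). Creb3l3 (-0.21), Gnptab (-0.15) and Creb3l1 (0.21) did not pass either. Among other genes of proteins with a sterol-sensing domain, Dhcr7, an enzyme of cholesterol synthesis, was lower (-2.34 ± 0.15, adjusted p = 2.76e-09). The cholesterol transporter Npc1 (-0.21) and the hedgehog receptor Ptch1 (-0.35) did not pass. Of 12 regulators of nuclear SREBP, 0 were called, the nearest being Fbxw7 (0.27), which targets nuclear SREBP for degradation, Crebbp (0.49), Nfyb (-0.15) and Usf1 (0.16), with adjusted p of 0.270 to 0.363. In none of these lists was a gene called for genotype on either diet.

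For each member, the 3 genes whose log2 CPM values were most like it over the 19 livers were taken by Pearson r. Insig1 was nearest to Tm7sf2 (0.950), Fdps (0.944) and Msmo1 (0.942), all of cholesterol synthesis, and with group means removed these fell to 0.594, 0.325 and 0.309. Srebf2 was nearest to Hsd17b7 (0.963), Acsl5 (0.945) and Pgd (0.939), which kept 0.834, 0.802 and 0.765 within groups. The values of Insig1 fell with the group means removed, more than those of Srebf2. Scap came next to Srebf2, Acsl5 (0.892) and the desaturase gene Fads2 (0.887).

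The remaining members had other neighbours. Insig2 was nearest to Lgalsl (0.875), Clpx (0.867) and Rnf144a (0.862). Mbtps1 was nearest to Magi3 (0.953), Tut7 (0.951) and Snx27 (0.949), and Mbtps2 to Chpf2 (0.856), Cdc73 (0.847) and Ltn1 (0.832). None of these is a gene of sterol synthesis. Rnf139 was nearest to Faf1 (0.948), Atp5b (0.905) and Zc3h14 (0.902). Srebf1 had weaker neighbours, 1700092C10Rik (0.733), Acot11 (0.730) and Triobp (0.721), as had Rnf145, with 1190002N15Rik (0.790), P2ry1 (0.774) and 0610030E20Rik (0.768). These values describe libraries that share depth and diet, over 19 points, and carry no test.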

How the data were processed

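Whole-number read counts per Ensembl gene were deposited by the authors, 1 table per mouse, without normalization. The submitters' processing notes name STAR 2.5.2b and GRCm38, and the study's methods name poly(A) selection and paired reads. Counting tool, strand setting and annotation release were not given in the sources used here. A symbol was found for 48970 of 49315 gene identifiers. TPM was computed here, using each gene's deposited length. Counts were tested with edgeR 4.0.16 (R 4.3.3): TMM, filterByExpr with a minimum count of 10, 1 coefficient per group over all 19 libraries, the quasi-likelihood F test, and Benjamini-Hochberg adjustment over 15016 genes in each of 6 comparisons, called below 0.05. SE and 95% intervals are on the log2 scale. The test was tested on simulated data. Promoter sequences are from RefSeq (GRCm38.p6), for 8 of the 9 members. The members and lists were chosen with earlier results of these data known. Named genes were the members, the 3 genes most like each (log2 CPM, prior count 2), and up to 4 per list with the smallest p for averaged diet, and some that this rule selects are left out of the text. Markers of 7 cell types were checked. Alternatives were DESeq2, RLE, no filter and a stricter filter (50), only the groups compared, a replicate block, a term for the run of library numbers, limma on log2(TPM + 1), each library left out and, chosen after seeing the data, the 2 libraries that stood apart left out. The labels describe each library as its own sample, and the p-values come from tests of group differences against the spread between libraries. No 2 libraries were identical.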

Additional observations from a re-analysis of the deposited data

Results flagged for a closer look

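For 3 of the 36 sets of values (9 genes in 4 groups), 1 liver lay far from the others of its group by a gap test at 95%, which flags about 1 group in 20 by chance. Insig2 was 233 TPM in Gramd1c-/- low cholesterol replicate 4, against 127 to 132 TPM in the other 3 mice. Mbtps1 was 12.01 TPM in Gramd1c-/- low cholesterol replicate 1, against 15.1 to 15.4 TPM in the others. Srebf1 was 229.9 TPM in Gramd1c+/+ high cholesterol replicate 4, against 102 to 134 TPM in the others. Without each of these mice, the diet effects were 0.20 for Insig2 and -0.23 for Mbtps1 in Gramd1c-/- mice and 0.37 for Srebf1 in Gramd1c+/+ mice, and none passed the test with or without them.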

How the results depend on the processing

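Of the 9 member values called (9 genes in 6 comparisons), 0 of 248 recomputed values changed sign and 16 missed the threshold, and of the others 0 of 1246 passed it. The genes called over the whole table were 49 for diet in Gramd1c-/- mice, 66 in Gramd1c+/+ mice and 195 averaged, and DESeq2 called 94, 111 and 598 in the same order. Replicate numbers did not pair the mice (mean correlation of residuals -0.069 over 27 pairs with the same number, 0.017 over 108 others). With the replicate block, 122 genes were called for averaged diet, Scap was -0.50 (adjusted p = 0.0516), Insig2 in Gramd1c-/- mice was 0.049, and no other member call changed. Leaving out 1 mouse gave 41 to 87 genes for Gramd1c+/+ mice (fewest without high cholesterol replicate 2 at 41 and low cholesterol replicate 2 at 42) and 119 to 308 for the average (119, 123 and 129 without Gramd1c-/- low cholesterol replicates 2 and 3 and Gramd1c+/+ high cholesterol replicate 2, and 308 without Gramd1c+/+ low cholesterol replicate 5). The members called lower in Gramd1c-/- mice were then 1 to 2, and those called higher 0 to 1 in Gramd1c+/+ mice and 0 to 1 on average. The 1 member higher in Gramd1c+/+ mice became 0 without the filter, with only the groups compared and in limma, and the averaged 1 became 0 in limma.

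Values that changed sign were all small and not called. In limma these were 0.013 for Scap and 0.0075 for Mbtps2 (genotype, high cholesterol) and 0.024 for Mbtps1 (interaction). With the term for the run, Srebf2 was -0.022 (interaction). Without the 2 libraries that stood apart, they were 0.13 for Insig2 and 0.0015 for Rnf139 (diet, Gramd1c-/-), 0.059 for Srebf2, 0.024 for Scap and 0.010 for Rnf139 (genotype, high cholesterol), and 0.0022 for Mbtps1 (interaction). Leaving out 1 mouse gave ranges across 0 as follows. For diet these were Insig2 -0.14 to 0.20 and Rnf139 -0.14 to 0.00098 in Gramd1c-/- mice, and Mbtps2 -0.18 to 0.0048 in Gramd1c+/+ mice. For genotype on high cholesterol they were Mbtps2 -0.13 to 0.014, Insig1 -0.22 to 0.034, Mbtps1 -0.020 to 0.16, Srebf2 -0.19 to 0.059, Scap -0.13 to 0.037 and Rnf139 -0.15 to 0.010. For genotype on low cholesterol they were Srebf1 -0.14 to 0.11, Srebf2 -0.22 to 0.054, Scap -0.11 to 0.14 and Mbtps2 -0.013 to 0.14. For the interaction they were Srebf2 -0.14 to 0.17, Insig1 -0.087 to 0.18, Rnf139 -0.026 to 0.13, Scap -0.19 to 0.051 and Mbtps1 -0.13 to 0.029. The cause was not tested. Counts per gene do not separate isoforms or, if strand was not used, overlapping genes.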
